A study of Mus musculus with 8 samples.

Results

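The genes described here are targets of the transcription factor p53: Mdm2, Trp53inp1, Ccng1, Bax, Bbc3, Pmaip1, Fas, Zmat3, Eda2r and Perp. Members were taken as the rows of the deposited array table whose only gene symbol is 1 of these 10 names. This found 9 of the 10, each with 1 probe set, among 19938 named genes. Bax was not analysed here. RNA came from cultured primary myoblasts, the dividing culture stage of muscle satellite cells, and was hybridised to Affymetrix MoGene 1.0 ST arrays, on which a probe set reads along a whole transcript. The labels give 4 arrays as WT and 4 as Runx1f/f, a floxed Runx1 genotype that they also call KO, both on C57bl/6 and both isolated from gastrocnemius muscle at 2 to 3 weeks of age. They call the arrays biological replicates, numbered 1 to 4 in each genotype. The sources used here do not name a Cre for the floxed allele, the deleted part of Runx1 or whether each replicate came from its own animal. The p-values therefore measure only the spread between these samples, which may be technical. Values are log2 intensities on the RMA scale, with mean ± SD over n = 4 arrays unless another n is given.

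p53 is held at a low level in unstressed cells and accumulates after DNA damage or other stress. It then switches on genes that stop the cell cycle, remove reactive oxygen, or kill the cell through mitochondria or death receptors, and it also switches on Mdm2, the ubiquitin ligase that degrades it. p53 binds DNA at pairs of a decamer motif, often close to the target's start or within its first intron. In muscle precursors, p53 and its relatives are known to act on both the cell cycle and differentiation.

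The arrays did not separate by their labels. The means of the WT and Runx1f/f columns were equal within 7.5e-05 in all 35399 rows, as were the means of Runx1f/f 1 and 2 and of Runx1f/f 3 and 4, so no member can differ between the labelled genotypes. The largest absolute difference among the 9 members was 5e-06. In limma 0 of 19938 genes were called, which is 0% of genes, and 0 had an unadjusted p under 0.05. The arrays separated instead by replicate number, with numbers 2 and 3 of both labels on one side and numbers 1 and 4 on the other. Arrays are named here by the label of their column's accession, and whether the values stand under the right accession could not be checked. That limit holds for every WT and Runx1f/f reading below. The source numbers in the labels are 142, 160, 141 and 161 on the first side and 139, 189, 140 and 181 on the second. Runx1 itself, the gene named in the genotype, was 10.03 ± 0.16 on arrays numbered 2 and 3 and 9.30 ± 0.13 on arrays numbered 1 and 4. This difference of 0.74 ± 0.10 (SE) passed the test (limma, adjusted p = 0.00911). The members were therefore compared between these sides, with the 3 equal-mean column sets as a block. This division was drawn up after the arrays had been seen to part in this way, so its p-values describe how far these arrays lie apart and are not an independent test.

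The upstream sequence of 3 members is shown to give the DNA that p53 could read near their start. RefSeq start sites on GRCm38.p6 were available for 6 of the 10 genes. Ccng1, Mdm2 and Eda2r are shown because they are the members with such a start whose arrays did not overlap between the sides. Ccng1 held a pair of p53 decamers and Mdm2 held 1 decamer, whereas Eda2r held no match. Each stretch is the 250 bases before the start, read 5′ to 3′ on the gene's strand (the minus strand for all 3), at chr11:40755287-40755536 for Ccng1, chr10:117710759-117711008 for Mdm2 and chrX:97377210-97377459 for Eda2r. Capitals mark the decamers.
Ccng1: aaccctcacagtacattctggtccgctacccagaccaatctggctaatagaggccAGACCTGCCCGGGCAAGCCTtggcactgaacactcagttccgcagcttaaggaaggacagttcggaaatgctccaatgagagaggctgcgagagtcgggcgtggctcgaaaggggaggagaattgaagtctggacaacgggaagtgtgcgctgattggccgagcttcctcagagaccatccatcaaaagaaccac
Mdm2: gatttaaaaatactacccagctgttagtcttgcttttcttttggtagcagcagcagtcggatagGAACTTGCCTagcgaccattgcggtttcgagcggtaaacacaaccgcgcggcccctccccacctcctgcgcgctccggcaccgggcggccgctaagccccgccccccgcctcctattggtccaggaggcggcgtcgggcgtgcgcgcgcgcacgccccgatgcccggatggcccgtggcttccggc
Eda2r: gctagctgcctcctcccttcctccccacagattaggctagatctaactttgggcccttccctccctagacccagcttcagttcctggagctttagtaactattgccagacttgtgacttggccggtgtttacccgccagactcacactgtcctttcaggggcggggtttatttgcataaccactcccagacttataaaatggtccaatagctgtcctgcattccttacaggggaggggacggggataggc
The search used the p53 decamer consensus, which is its own reverse complement, so both strands were read together. A pair of adjoining decamers with 1 mismatch in all began 195 bases before the Ccng1 start. A pair with at most 1 mismatch and a spacer of at most 13 bases occurred in 0.627% of 32851 windows of 300 bases (250 before to 50 after a start). A single exact decamer, as in Mdm2, occurred in 8.36% of the same windows. Among the genes not shown, Bax held 1 exact decamer and a pair with 2 mismatches (at most 2 in 4.09% of windows). Bbc3 held pairs with 3 mismatches only (at most 3 in 15.6% of windows), and Fas held no match. These are matches of letters. The arrays did not measure binding, and the known p53 elements of Mdm2 lie at its internal promoter, beyond the stretch shown.

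None of the 9 members passed the test between the sides (limma, adjusted p under 0.05), where 6.10% of all genes did. At an unadjusted p under 0.05 there were 4 of 9 members, against 19.5% of all genes. The 2 members with the smallest p differed in opposite directions. Zmat3 was lower and Trp53inp1 higher on arrays numbered 2 and 3. Between the sides 5 of 9 members had no overlap, against 20.4% of all genes, with 2 higher (9.87% of genes) and 3 lower (10.5% of genes) on arrays numbered 2 and 3. The median difference of the members was -0.08, against -0.01 over all genes, and the median absolute difference was 0.14, against 0.06. The values over all genes include many of low signal, as the array medians were 4.39 to 4.41. Genes matched to the members by level were not compared.

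**Figure D1:**
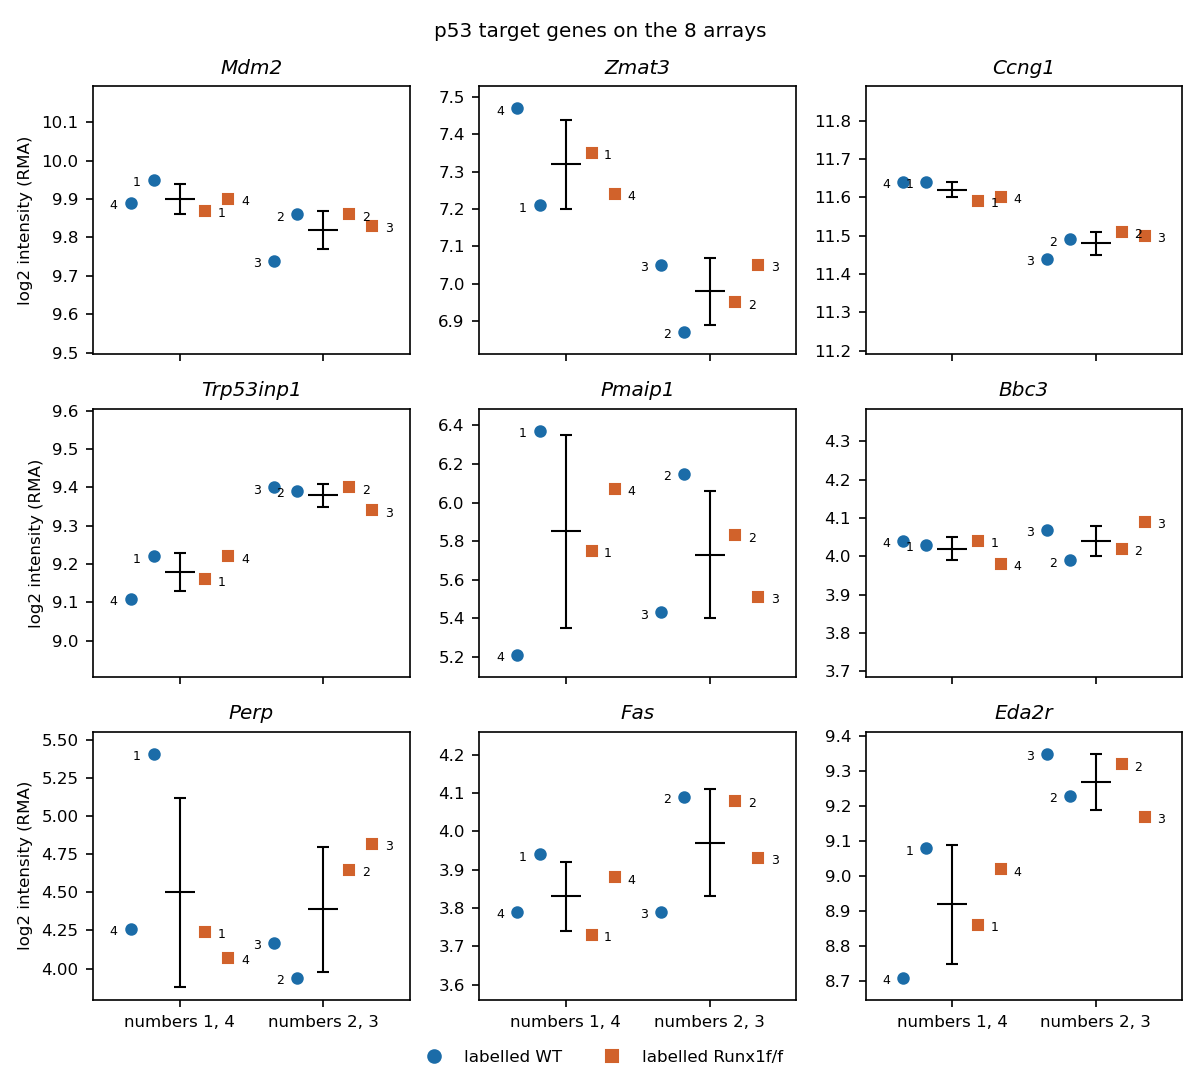
Log2 intensity of the 9 measured p53 target genes on each of the 8 arrays, with replicate numbers 1 and 4 on the left and 2 and 3 on the right of each panel. Blue circles are arrays labelled WT, orange squares arrays labelled Runx1f/f, small digits the replicate number, and black bars the mean and SD of the 4 arrays of a side. Each panel has its own axis, which does not start at 0. Trp53inp1 and Eda2r lie higher on the right and Zmat3 and Ccng1 lower, without overlap, whereas Pmaip1 and Perp scatter widely on both sides.

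Among the genes that act on p53 or on the cell cycle, Mdm2 varied little. It read 9.95, 9.86, 9.74 and 9.89 in WT 1 to 4. The Runx1f/f arrays read 9.87, 9.86, 9.83 and 9.90 in the same order. The sides did not overlap but came within 0.004 of each other, with numbers 2 and 3 below numbers 1 and 4. The difference of -0.08 ± 0.05 (SE) did not pass (limma, adjusted p = 0.521), and its 95% interval ran from -0.20 to 0.04.

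Zmat3, a zinc finger protein that binds RNA, read 7.21, 6.87, 7.05 and 7.47 in WT 1 to 4. It read 7.35, 6.95, 7.05 and 7.24 in Runx1f/f 1 to 4. All 4 arrays numbered 2 and 3 lay below all 4 numbered 1 and 4, by at least 0.155. The means were 6.98 ± 0.09 on arrays numbered 2 and 3 and 7.32 ± 0.12 on arrays numbered 1 and 4. The difference was -0.33 ± 0.08 (SE), a 1.26-fold gap, and did not pass by a narrow margin (limma, adjusted p = 0.0525). It passed in 7 of 20 other settings, among them a second quantile normalization (adjusted p = 0.0372) and the replicate number as a random block (adjusted p = 0.0259). That block had a negative estimated correlation (-0.196), which shrinks the error here and in the same fits of Trp53inp1 and Eda2r. With each array left out in turn, the adjusted p ran from 0.0589 to 0.148. The Runx1f/f column sets hold 2 arrays, so leaving out 1 also takes the other out of the comparison, here and below, and 8 such fits give 6 distinct results.

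Ccng1 encodes cyclin G1, which recruits a phosphatase to Mdm2. It read 11.64, 11.49, 11.44 and 11.64 in WT 1 to 4. In Runx1f/f 1 to 4 it read 11.59, 11.51, 11.50 and 11.60. The 4 arrays numbered 2 and 3 were again all below the others. The difference of -0.14 ± 0.05 (SE) was small, at 1.10-fold, and did not pass (limma, adjusted p = 0.153). Without the block it did (limma, adjusted p = 0.0209). That fit overstates the degrees of freedom and called 14.8% of all genes, 7.30% higher and 7.47% lower. Among the members it called 2 higher, Trp53inp1 and Eda2r, and 2 lower, Zmat3 and Ccng1. The upstream sequence of Ccng1 is the one with the paired decamers shown above.

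Trp53inp1 encodes a nuclear protein that helps p53 become phosphorylated under stress and also takes part in autophagy. It read 9.22, 9.39, 9.40 and 9.11 in WT 1 to 4. In Runx1f/f 1 to 4 it read 9.16, 9.40, 9.34 and 9.22. All 4 arrays numbered 2 and 3 lay above the others. The means were 9.38 ± 0.03 and 9.18 ± 0.05. The difference of 0.20 ± 0.05 (SE), or 1.15-fold, did not pass (limma, adjusted p = 0.0661), whereas with the replicate number as a random block it did (adjusted p = 0.0317). It passed in 4 of 20 other settings. With each array left out in turn, it did not pass (limma, adjusted p from 0.079 to 0.2).

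**Figure D2:**
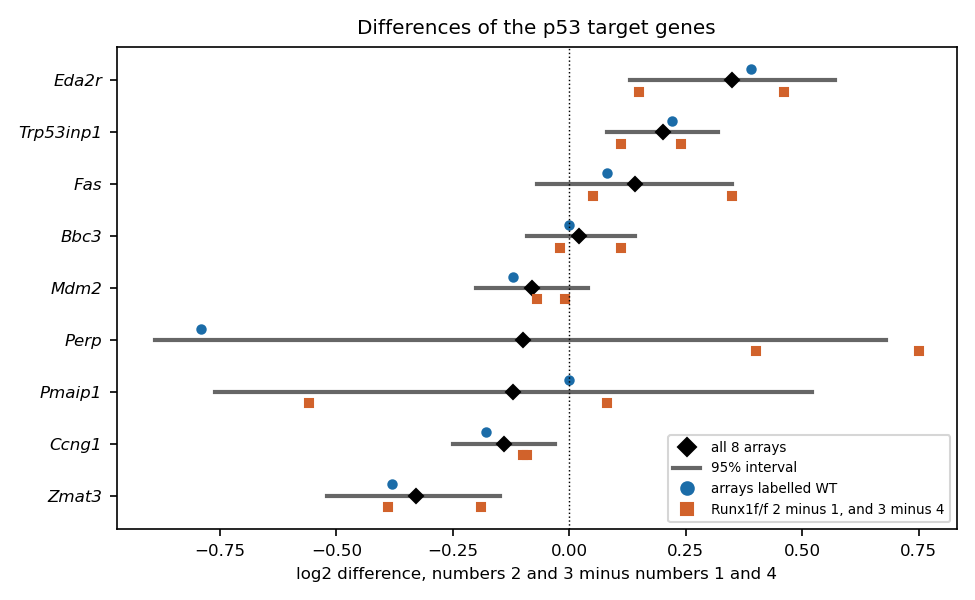
Log2 difference of each p53 target gene, arrays numbered 2 and 3 minus arrays numbered 1 and 4. Black diamonds with grey bars are the estimate and 95% interval over all 8 arrays, blue circles the difference among WT arrays, and orange squares the differences Runx1f/f 2 minus 1 and 3 minus 4. For Eda2r, Trp53inp1, Ccng1 and Zmat3 the interval excludes 0 and every marker lies on the same side. The intervals are not adjusted for the number of genes, and none of the genes shown passed the adjusted test. For Perp the WT and Runx1f/f arrays point in opposite directions.

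The mitochondrial death genes were not ordered by side. Pmaip1 encodes Noxa, and Bbc3 encodes Puma, both of which block the survival proteins of the Bcl2 family. Pmaip1 read 6.37, 6.15, 5.43 and 5.21 in WT 1 to 4. The Runx1f/f arrays read 5.75, 5.83, 5.51 and 6.07 in the same order. The 8 arrays spanned 1.16, the sides overlapped, and the difference of -0.12 had a 95% interval from -0.76 to 0.52 (limma, adjusted p = 0.894). A change of the size seen in Zmat3 would lie within that interval. Bbc3 stayed between 3.98 and 4.09 on all 8 arrays, below the array medians of 4.39 to 4.41. Its difference was 0.02, with a 95% interval from -0.09 to 0.14 (limma, adjusted p = 0.888). No detection values were used here, so whether Bbc3 was above background was not determined.

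Perp, a membrane protein of cell junctions that p53 induces during apoptosis, had the widest span of the members. It read 5.41, 3.94, 4.17 and 4.26 in WT 1 to 4. The Runx1f/f arrays read 4.24, 4.65, 4.82 and 4.07 in the same order. Its values in WT 2, 3 and 4 and in Runx1f/f 1 and 4 lay below the array medians of 4.39 to 4.41. WT 1 stood well above the 7 other arrays. Among WT arrays the difference between numbers 2 and 3 and numbers 1 and 4 was -0.79, whereas Runx1f/f 2 was 0.40 above Runx1f/f 1 and Runx1f/f 3 was 0.75 above Runx1f/f 4. Over all 8 arrays the difference was -0.10 ± 0.34 (SE) and did not pass (limma, adjusted p = 0.931). It was 0.26 without WT 1 and 0.08 without WT 2.

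Among the death receptors, Fas read 3.94, 4.09, 3.79 and 3.79 in WT 1 to 4. The Runx1f/f arrays read 3.73, 4.08, 3.93 and 3.88 in the same order. These values lie below the array medians, and the sides overlapped. The difference was 0.14 ± 0.09 (SE) and did not pass (limma, adjusted p = 0.486).

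Eda2r, the receptor of the ectodysplasin form A2, read 9.08, 9.23, 9.35 and 8.71 in WT 1 to 4. In Runx1f/f 1 to 4 it read 8.86, 9.32, 9.17 and 9.02. All 4 arrays numbered 2 and 3 were above the others. The means were 9.27 ± 0.08 and 8.92 ± 0.17. The difference of 0.35 ± 0.09 (SE), or 1.27-fold, did not pass (limma, adjusted p = 0.0826), but did with the replicate number as a random block (adjusted p = 0.0372). It passed in 4 of 20 other settings. With each array left out in turn, it did not pass (limma, adjusted p from 0.0611 to 0.228). The upstream sequence of Eda2r shown above held no decamer match.

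None of these differences was shown to depend on the label. For Zmat3 the difference was -0.38 among WT arrays, -0.39 for Runx1f/f 2 minus 1 and -0.19 for Runx1f/f 3 minus 4. For Eda2r the same values were 0.39, 0.46 and 0.15, and for Trp53inp1 0.22, 0.24 and 0.11. The test of whether the difference depended on the label called 35 genes (0.176%) and none of the 9 members. The smallest member p was that of Perp (limma, adjusted p = 0.385).

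Among other p53 targets, 8 differences were positive and 19 negative. Of 30 listed, 27 were measured, and Cdkn1a, Gdf15 and Fdxr were not analysed here. None was higher (3.69% of all genes were) and 1 lower (2.41% of all genes) on arrays numbered 2 and 3. The median difference was -0.05, against -0.01 over all genes, and the share of negative differences over all genes was not counted. Without overlap, 2 lay higher and 8 lower (9.87% and 10.5% of all genes). The gene that fell was Tap1, a peptide transporter of antigen presentation, from 5.86 ± 0.10 to 5.49 ± 0.10 (limma, adjusted p = 0.0355). Tap1 kept the call without Runx1f/f 3 or Runx1f/f 4 and lost it without any 1 of the other 6 arrays, with adjusted p up to 0.127. It also lost it with the source run block, which replaces the column sets by the 3 runs of source numbers (limma, adjusted p = 0.0507). Source numbers 160 and 161 lie on 1 side, and 181 and 189 on the other. This block therefore compares only the arrays numbered 1 and 2, here and below. Genes that did not pass included the related stress response genes Sesn1 and Sesn2, with differences of 0.38 and -0.32 (limma, adjusted p = 0.0582 and 0.0711). They were named after their values had been seen, as were the next genes. The kinase gene Plk2 differed by 0.30 and the death receptor gene Tnfrsf10b by -0.33 (limma, adjusted p = 0.0628 and 0.0582).

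Genes that control p53 gave 3 calls among 20 measured of 21 listed, 2 higher (3.69% of all genes were) and 1 lower (2.41%), and Trp53 itself was not analysed here. Trp63, a p53 relative best known from epithelia, read 5.03, 6.01, 6.01 and 4.79 in WT 1 to 4. The Runx1f/f arrays read 5.36, 5.57, 5.94 and 4.98 in the same order. Its difference of 0.84 ± 0.15 (SE) passed (limma, adjusted p = 0.0203), but the call held without Runx1f/f 1 or Runx1f/f 2 and was lost without any 1 of the other 6 arrays, with adjusted p up to 0.079. With the source run block the difference was 0.59 and did not pass (limma, adjusted p = 0.113). Rchy1 encodes Pirh2, a ubiquitin ligase that degrades p53. It read 8.30, 8.60, 8.67 and 8.19 in WT 1 to 4. The Runx1f/f arrays read 8.28, 8.60, 8.64 and 8.23 in the same order. The sides lay clearly apart, and the rise of 0.38 ± 0.05 (SE) passed (limma, adjusted p = 0.00824) and also with each array left out (up to 0.0381). Among WT arrays alone it was 0.39 and passed (limma, adjusted p = 0.0417). Among Runx1f/f arrays alone it was 0.37 and did not (limma, adjusted p = 0.174).

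Chek1, a checkpoint kinase of replicating cells, fell from 7.38 ± 0.10 to 7.01 ± 0.12 on arrays numbered 2 and 3 (limma, adjusted p = 0.049). It lost the call with any 1 of the 8 arrays left out, at 0.0575 to 0.138, and with the source run block (0.207). Mdm4, the inhibitory partner of Mdm2, was 8.34 ± 0.09 against 8.10 ± 0.15 and did not pass (limma, adjusted p = 0.178).

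Downstream of the members, 1 of 16 measured genes of the Bcl2 family and caspase activation was higher and none lower, near the 6.10% called over all genes. Casp9, the caspase that mitochondrial death signals activate, rose from 5.87 ± 0.07 to 6.31 ± 0.07 (limma, adjusted p = 0.0103), also with each array left out (up to 0.0465). In death receptor signalling none of 13 measured genes was higher and 1 was lower, again near that share. Casp8, the caspase that Fas activates, fell from 7.72 ± 0.08 to 7.44 ± 0.06 (limma, adjusted p = 0.042), and lost the call with any 1 of the 8 arrays left out, at 0.063 to 0.138, and with the source run block (0.123). Eda, which encodes the ligand family of Eda2r, was 5.01 against 5.17 and did not pass (limma, adjusted p = 0.192).

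**Figure D3:**
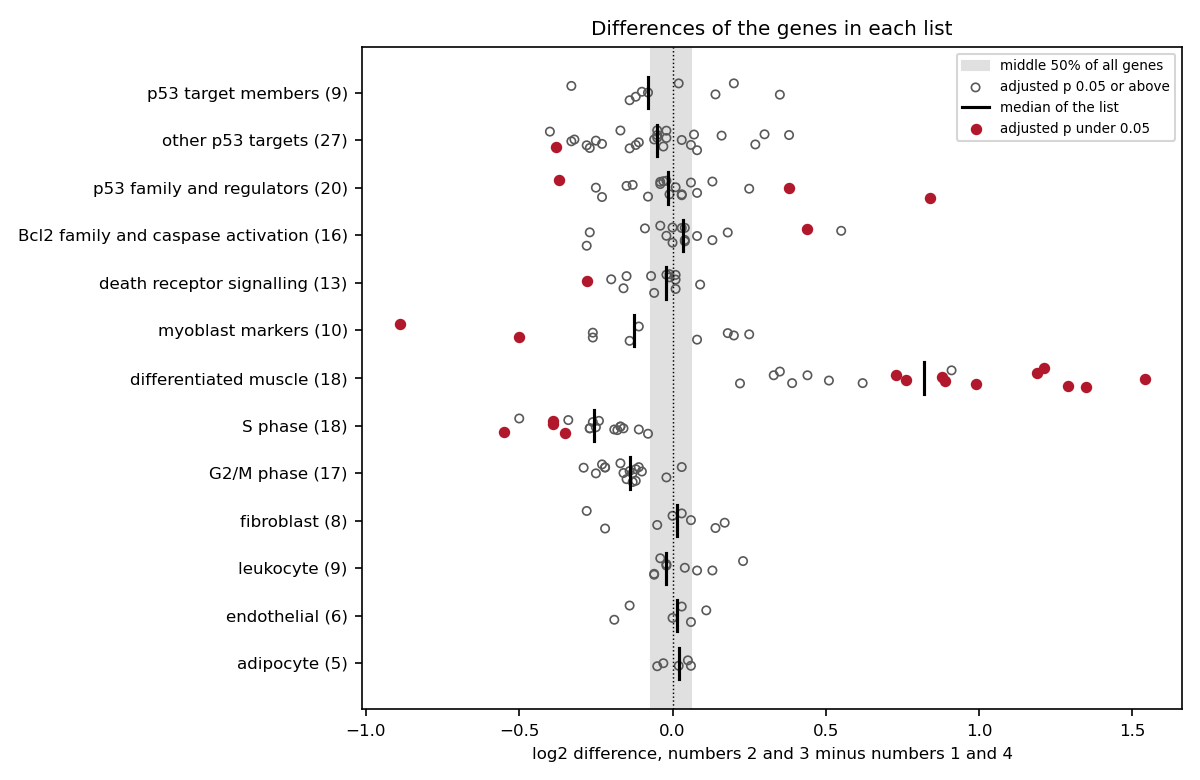
Log2 difference, arrays numbered 2 and 3 minus arrays numbered 1 and 4, of each measured gene in 13 lists, with the number measured in parentheses. Filled red points passed the test (limma, adjusted p under 0.05), open points did not, black lines are list medians, and the grey band holds the middle 50% of all genes. The p53 target members spread to both sides of 0 with no filled point, whereas all 18 differentiated muscle genes lie above 0 and all 18 S phase genes below.

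Differentiated muscle genes differed between the same sides, and some S phase genes did. Of 18 differentiated muscle genes 10 were higher and none lower on arrays numbered 2 and 3, with a median difference of 0.82. Over all genes 3.69% were higher and 2.41% lower. Their mean level was 10.46 to 10.94 on these arrays and 9.58 to 10.06 on the others. Myoz2, a Z-disc protein, rose by 1.35 ± 0.15 (SE) (limma, adjusted p = 0.00418), and kept the call with each array left out (up to 0.0219). Mybpc1 and Mef2c, also named by rule, rose by 1.54 and 1.29 (limma, adjusted p = 0.0151 and 0.0174). With each array left out in turn, their highest adjusted p was 0.0654 and 0.0719. With the source run block Mef2c did not pass (limma, adjusted p = 0.0673), whereas Mybpc1 and Myoz2 did (0.0359 and 0.023). Of 18 S phase genes none was higher and 4 were lower, with a median of -0.25. Their mean level was 8.15 to 8.35 on arrays numbered 1 and 4 and lower on all 4 others, from 7.89 upward. Of the 3 of these named by rule, Ccne2, Rrm1 and Mcm2, none passed with the source run block (limma, adjusted p = 0.0599, 0.0611 and 0.0986), and with each array left out in turn the highest adjusted p was 0.0858, 0.067 and 0.115. Of 17 G2/M genes none passed, and their median was -0.14. Of 10 myoblast markers 2 were lower, Myf5 and Sdc4, and none was higher, with mean levels of 9.72 to 9.80 against 9.82 to 9.95. The myoblast list was mixed in direction, with 4 differences positive and 6 negative. Without overlap, 2 lay higher and 4 lower (9.87% and 10.5% of all genes). The 2 higher were Cdh15 and Des, at 0.25 and 0.18, which did not pass (limma, adjusted p = 0.0936 and 0.145). The part of these shifts in the members' differences was not tested, and in bulk RNA fewer cells of a type and less RNA per cell cannot be told apart.

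Marker lists of other cell types gave no call. Among 8 fibroblast, 9 leukocyte, 6 endothelial and 5 adipocyte markers 0 passed (limma), and 0, 1, 2 and 0 of them had an unadjusted p under 0.05. The mean level of the fibroblast list was 5.09 to 5.25 on arrays numbered 2 and 3 and 5.10 to 5.27 on the others. That of the leukocyte list was 3.58 to 3.65 against 3.55 to 3.60, that of the endothelial list 3.54 to 3.56 against 3.55 to 3.59, and that of the adipocyte list 3.59 against 3.58, all below the array medians. Levels within the fibroblast list were unequal. Col1a2 read 9.63 on arrays numbered 2 and 3 and 9.91 on the others, and Col3a1 8.99 and 8.82. Pdgfra, Dcn, Lum and Tcf21 lay below the array medians.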

How the data were processed

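The 8 arrays were deposited as 1 table of log2 values per probe set. Per the submitters' processing notes, RMA and Partek were used, without versions. No label records the step that made the means of 3 column sets equal. Columns were matched to samples by the accession in their header. Whether each column's values belong to that accession could not be checked. The platform annotation gave 21789 rows a single symbol. The row with the highest mean was kept per gene. No member had another row.

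The sides (replicate numbers 2 and 3 against 1 and 4) were set against each other in limma 3.58.1 (R 4.3.3), two-sided, with the column sets as a block and 4 residual degrees of freedom, Benjamini-Hochberg adjusted over 19938 genes. Deviations from label means correlated by 0.39 to 0.60 between arrays of the same number. Same-numbered arrays share a side, so this does not establish a pairing, and the reported fit uses none. The labels give no pairing. The number was tried as a random block, and once the side was in the model its estimated correlation was negative (-0.196). Arrays of opposite labels then offset each other, which shrinks the error of the side difference. Intervals are 95% intervals of the fit for each gene, not adjusted for the number of genes. The number of arrays limits the precision.

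On simulated arrays with these spreads and equal-mean column sets, 200 of 19938 genes were changed. The fit recovered 36.4% and 30.3% of genes lowered or raised by 0.3 and 88.2% and 87.9% at 1, with 9 false calls among 140. In the data 6.10% of genes were called, so these shares need not hold there. Members and lists were chosen with earlier results of these data known. The rule for named genes took all members, Mdm4 and Runx1, and up to 4 passing genes per list (3 for marker lists), or the 2 largest differences if none passed. Motifs were searched in RefSeq promoter windows. Alternatives were other blocks, scalings, filters, variance models, thresholds, each array left out and each label alone.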

Additional observations from a re-analysis of the deposited data

Results flagged for a closer look

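Perp read 5.41 in WT 1, whereas the other arrays numbered 1 and 4 lay between 4.07 and 4.26, below the array medians. Its difference between the sides also had opposite directions in the labels, being 1.36 higher in Runx1f/f than in WT arrays (limma interaction, adjusted p = 0.385). Col1a2, a fibroblast collagen gene, likewise was ordered oppositely in the labels, with an interaction of 0.98 (limma, adjusted p = 0.325).

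Single arrays stood apart in other genes. Mdm4 read 7.87 in WT 1, against 8.15 to 8.19 in the other arrays numbered 1 and 4. Trp63 read 5.57 in Runx1f/f 2, against 5.94 to 6.01 in the other arrays numbered 2 and 3. Mcm2, a replication helicase subunit, read 8.12 in Runx1f/f 3, against 8.25 to 8.27. The adipocyte gene Lep read 3.80 in WT 3, against 3.62 to 3.64 in the other WT arrays, and Adipoq 3.61 in WT 2, against 3.47 to 3.49 in the other arrays numbered 2 and 3. These 6 came from 140 groups of 4 arrays, by side and by label, and chance marks about 1 in 20 such groups when values are independent. Equal column means make the Runx1f/f values symmetric, so no mark is possible in that label.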

How the results depend on the processing

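No p53 target gene was called as reported, and Trp53inp1, Ccng1, Zmat3, Eda2r, Mdm2 and Fas kept their direction in every alternative fitted. Counts are given as higher and lower, members first and all genes second. The reported counts were 0 and 0 members among 736 and 481 genes. They were 2 and 2 among 1456 and 1489 without a block, 2 and 1 among 1076 and 945 with the labelled genotype as the block, and 2 and 1 among 1050 and 867 with the replicate block. They were 1 and 1 among 857 and 604 with array weights, 2 and 1 among 1069 and 895 at an adjusted p under 0.1, and 1 and 0 among 776 and 488 with trend and robust variances. They were 0 and 1 among 728 and 501 with arrays centred, among 706 and 576 with quantile normalization again, and among 670 and 486 with dim genes (mean under 5) left out. They were 0 and 0 among 398 and 255 with a block for the source number runs, 148 and 33 with only Runx1f/f arrays, and 262 and 96 at an adjusted p under 0.01. In each other setting run 0 members were called. The cause was not tested, except that the fits without a block and with the labelled genotype as the block have more degrees of freedom by construction.

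With each array left out, 329 to 618 were higher and 127 to 414 lower, lowest without WT 4, while 0 members were called either way. With only Runx1f/f arrays, all 15 named genes that had passed lost the call and kept their direction. Rchy1, Casp9, Myoz2 and Runx1 were among them. The genotype comparison stayed at 0 with the replicate block and with each array left out.

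The direction turned only in genes that were called in no setting run. Bbc3 became -0.03 and Adipoq 0.03 with the source run block. With WT arrays alone Thy1 became 0.06 and Adipoq 0.00. With Runx1f/f arrays alone Perp became 0.58 and Col1a2 0.21. With each array left out Bbc3 ran from -0.01 to 0.04, Pmaip1 from -0.38 to 0.09 and Perp from -0.39 to 0.26. Signal over background was not used.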
